A study of Mus musculus with 4 samples.

Results

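The interferon-stimulated genes described here are a list of 38 genes of the antiviral and inflammatory interferon response, followed by symbol through single-cell RNA sequencing of mouse bone. Of the 38, 37 had a row among the 31053 genes of the count matrices; Mx2 was not analysed here. UMIs (unique molecular identifiers, 1 per captured transcript end) of these 37 members were read in every barcode with 1000 to 40000 UMIs and at most 10% of UMIs from mitochondrial genes, which left 32217 of 40003 barcodes. All mice were wild type, of strain C57BL/6J in the methods. The 2 HLU mice had hindlimbs unloaded by tail suspension for 28 days, and the 2 Ctrl mice were untreated. One library was made from each mouse, with the 10x 3′ version 3.1 chemistry, from tibiae and femurs that had been rinsed of marrow and digested with enzymes. The sources differ on age: 8 weeks in the methods and postnatal day 28 in the series text. The labels give no sex.

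Interferons are secreted cytokines that act through paired surface receptors, Janus kinases and STAT factors. Type I interferons act on the interferon-stimulated response element (ISRE), through a complex that includes STAT2 and IRF9, whereas interferon gamma acts on the gamma-activated sequence (GAS). The genes so induced restrict viruses and intracellular microbes, and many are also transcribed at a low level without infection. In bone, interferons are known as restraints on osteoclast formation, and plasmacytoid dendritic cells are a classical source of type I interferon.

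By role, the ISG15 system held Isg15, a ubiquitin-like modifier, Herc6, its ligase in the mouse, and Usp18, its protease. Ifit1, Ifit2, Ifit3 and Ifit3b encode binders of foreign or non-self RNA and their partners. The OAS family held the oligoadenylate synthetases Oas1a, Oas2 and Oas3 and the related Oasl1 and Oasl2. Direct effectors were Mx1, Mx2, Rsad2 (viperin), its neighbour Cmpk2, a nucleotide kinase, and Bst2 (tetherin), which holds budding virions at the membrane. Nucleic acid sensors were Ddx58 (RIG-I), Ifih1 (MDA5), Zbp1 and Ifi204. Irf1, Irf7, Irf9 and Stat2 encode transcription factors of the pathway. Gbp2, Gbp3, Gbp5, Gbp7, Igtp, Irgm1 and Ifi47 encode interferon-inducible GTPases of cell-autonomous defence. Ifi44, Rtp4, Xaf1, Parp14, Ifi35 and Slfn5 completed the list.

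The members were spread over 14 chromosomes, with 7 on chromosome 11. Several sit side by side in mm10 (GENCODE M21 annotation): the 4 Ifit genes at chr19:34550694-34650009, the 4 Gbp genes at chr3:142493978-142638008, and Rsad2 with Cmpk2 at chr12:26442746-26479837. Because a 3′ library counts transcript ends, the last 500 bases of each transcript were compared with every other gene in stretches of 25 bases. Oas1a shared 74.2% of them with Oas1g and Ifit3 shared 30.04% with Ifit3b, so the counts of those members are uncertain. Every other member shared at most 14.1%.

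Promoters were read from RefSeq on GRCm38.p6, as 250 bases before and 50 bases after the transcript start, for 30 of the 38 members. The ISRE core was searched as GAAANNGAAA on either strand and the GAS core as TTCNNNGAA, which reads the same on both strands. The ISRE core stood in 18 of the 30 member promoters (60%) and in 3.99% of all 27025 genes of the table, counted over any start of the gene. The GAS core stood in 8 of 30 (26.7%) and in 9.55% of all genes. Over single promoters of the same length, 3.44% and 8.30% of 32851 held them. Both occurred in 5 members, neither in 9, and 8 members held at least 2 ISRE cores. Among the GTPases, 6 of 7 held an ISRE core and 3 of 7 a GAS core, while Irf1 held a GAS core without an ISRE core. A match is a description of letters and not of a bound site.

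Printed below are the promoters of 7 members chosen as examples, each with a core, and the cores are in capitals. The direction is that of transcription. Ifi47 and Xaf1, which were among the highest members of some gates, held neither core and are not printed. In Isg15 3 ISRE cores overlap in a single run that begins at -78 from the start, and in Bst2 a GAS core runs into 2 overlapping ISRE cores.
Isg15, chr4:156200769-156201068, minus strand: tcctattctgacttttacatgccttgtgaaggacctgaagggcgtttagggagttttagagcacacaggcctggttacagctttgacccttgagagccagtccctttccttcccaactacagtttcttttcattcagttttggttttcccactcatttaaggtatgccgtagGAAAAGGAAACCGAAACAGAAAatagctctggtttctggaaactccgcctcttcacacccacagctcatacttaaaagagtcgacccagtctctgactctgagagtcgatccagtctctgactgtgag
Rsad2, chr12:26456403-26456702, minus strand: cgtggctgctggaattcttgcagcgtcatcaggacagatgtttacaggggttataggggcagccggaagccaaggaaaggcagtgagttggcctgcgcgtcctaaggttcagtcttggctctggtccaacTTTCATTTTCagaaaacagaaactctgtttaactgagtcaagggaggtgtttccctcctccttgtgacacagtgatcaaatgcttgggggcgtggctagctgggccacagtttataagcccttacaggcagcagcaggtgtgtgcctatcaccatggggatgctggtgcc
Bst2, chr8:71537423-71537722, minus strand: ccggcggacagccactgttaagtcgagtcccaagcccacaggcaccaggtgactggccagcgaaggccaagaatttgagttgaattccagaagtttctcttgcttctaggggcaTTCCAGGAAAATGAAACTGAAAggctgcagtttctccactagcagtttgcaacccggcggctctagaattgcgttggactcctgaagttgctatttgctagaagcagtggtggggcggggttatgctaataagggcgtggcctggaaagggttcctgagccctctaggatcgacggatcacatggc
Ifit1, chr19:34640639-34640938, plus strand: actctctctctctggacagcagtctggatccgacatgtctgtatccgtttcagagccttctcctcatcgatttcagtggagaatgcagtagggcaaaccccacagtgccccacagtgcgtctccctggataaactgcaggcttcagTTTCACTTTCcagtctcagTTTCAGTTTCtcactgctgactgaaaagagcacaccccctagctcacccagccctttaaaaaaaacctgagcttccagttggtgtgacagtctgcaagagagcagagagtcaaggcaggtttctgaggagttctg
Oas3, chr5:120777610-120777909, minus strand: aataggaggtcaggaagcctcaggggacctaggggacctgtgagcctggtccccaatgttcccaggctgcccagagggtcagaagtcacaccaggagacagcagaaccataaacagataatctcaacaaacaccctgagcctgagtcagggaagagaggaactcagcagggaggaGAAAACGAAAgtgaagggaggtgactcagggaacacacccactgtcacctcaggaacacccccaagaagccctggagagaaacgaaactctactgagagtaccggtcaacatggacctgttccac
Gbp7, chr3:142530086-142530385, plus strand: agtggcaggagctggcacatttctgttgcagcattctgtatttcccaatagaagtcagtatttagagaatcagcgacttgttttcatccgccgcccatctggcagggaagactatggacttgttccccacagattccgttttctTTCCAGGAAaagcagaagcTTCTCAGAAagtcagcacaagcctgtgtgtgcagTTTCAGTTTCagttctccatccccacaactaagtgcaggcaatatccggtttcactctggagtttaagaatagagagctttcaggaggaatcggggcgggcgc
Irf1, chr11:53769764-53770063, plus strand: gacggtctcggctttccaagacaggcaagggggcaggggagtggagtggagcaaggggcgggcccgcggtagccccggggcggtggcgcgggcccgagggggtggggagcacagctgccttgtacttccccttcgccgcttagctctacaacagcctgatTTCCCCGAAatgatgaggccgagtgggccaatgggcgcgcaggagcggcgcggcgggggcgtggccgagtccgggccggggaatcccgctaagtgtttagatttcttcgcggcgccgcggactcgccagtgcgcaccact
In these 7, the first ISRE core of each lay at -120 in Rsad2, -130 in Bst2, -104 in Ifit1, -75 in Oas3 and -53 in Gbp7, and the GAS core of Irf1 lay at -90.

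Cell types were set by gates on marker genes that contained no member, so a gate is named by its markers and nothing else. The gates took 21039 barcodes, of which 977 (4.64%) lay close to the limit of the score, whereas 6073 (18.9%) carried markers of more than one type and 5105 (15.8%) reached no gate. None of the 15 gates had a member among the 10 genes with the largest fold over other barcodes. The conventional dendritic cell gate had no UMI of Xcr1 or Clec9a and none of its listed markers among those 10 genes, so it is the least certain of the names. Its markers were led by Ccr7, at 24.9 UMIs per 10000 UMIs (0.213 in other gates), and Fscn1, at 12.2 (0.0548). Cd209a and Clec10a were at 0.126 and 0.167. The name hereafter stands for dendritic cells marked mainly by Ccr7 and Fscn1. Of those 10 genes, immature neutrophils and chondrocytes had 4 of their own markers each, mesenchymal and osteoblast lineage cells 2, and monocytes and mature neutrophils 1 each.

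The 4 libraries held 47819046 to 99849070 UMIs, HLU replicate 2 being the deepest, and the median kept barcode had 3799 to 6294.5 UMIs. The groups differed in which cells were captured. Chondrocyte gates held 1413 and 1295 barcodes in Ctrl against 21 and 55 in HLU, and mesenchymal gates 1032 and 630 against 23 and 34. Erythroid gates held 8 and 11 in Ctrl against 55 and 413 in HLU. Any pair of libraries shared 13 to 21 barcode sequences. Hereafter 4 values in a row belong first to the Ctrl and then to the HLU libraries, each pair in order of replicate number, and a level is the number of UMIs per 10000 UMIs of the cells named. Confidence intervals (95%, exact Poisson for levels and exact binomial for shares) cover counting error only.

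Where the members were expressed was asked first. The summed level of the 37 members was highest in the macrophage gate, at 69.5, 19.0 and 67.5 in the libraries that had such barcodes (3, 5 and 35 barcodes, with none in HLU replicate 1). Plasmacytoid dendritic cells followed with 35.6, 29.0, 34.3 and 58.5 (8, 6, 20 and 3 barcodes) and conventional dendritic cells with 10.7, 18.6, 15.7 and 24.2 (8, 14, 20 and 48 barcodes). These are small gates, and the macrophage and plasmacytoid ranges overlap.

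Among the 6 gates with at least 30 barcodes in every library, T and NK cells stood highest at 7.66, 7.37, 7.34 and 8.996. Their lowest library was above the highest library of every other gate of the 6. Monocytes (2.97, 6.86, 4.72 and 6.46) and B cells (3.72, 4.70, 4.62 and 5.80) overlapped each other. Granulocyte-monocyte progenitors (2.22, 3.66, 2.52 and 3.71) and mature neutrophils (2.10, 2.13, 3.06 and 4.53) likewise overlapped. Immature neutrophils were lowest at 1.12, 1.32, 1.46 and 1.77, below every library of the other 5. Of the skeletal gates, mesenchymal and osteoblast lineage cells held 3.61, 2.91, 4.07 and 4.83, and chondrocytes held 0.824, 1.09, 0.877 and 2.01.

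**Figure D1:**
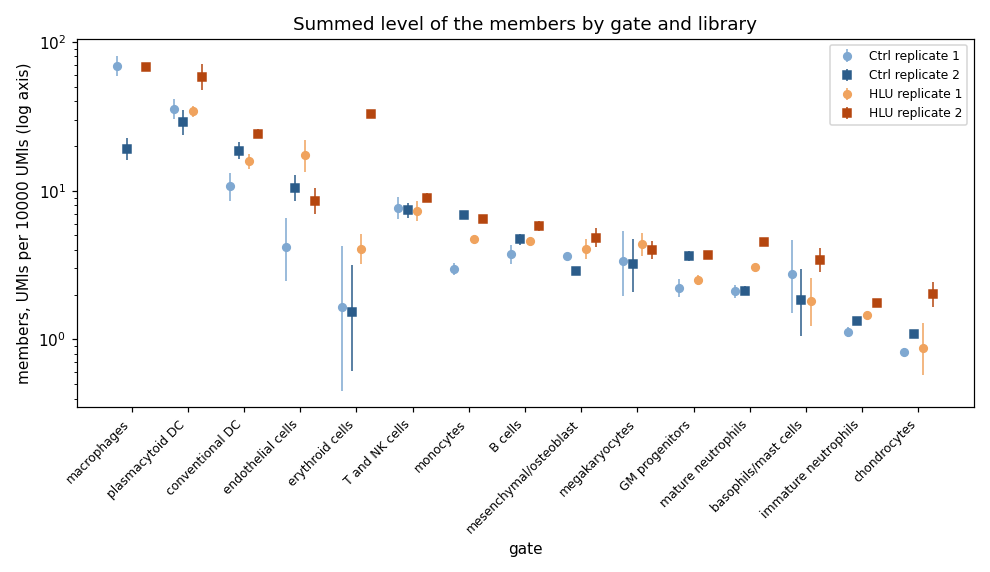
Summed level of the 37 members (UMIs per 10000 UMIs, log axis) by marker gate, 1 point per library with its exact Poisson 95% interval; circles and squares are replicates 1 and 2 of Ctrl (blue) and HLU (orange). Macrophages and plasmacytoid dendritic cells sit highest, immature neutrophils and chondrocytes lowest, and the erythroid gate spreads from 1.53 to 32.7 with haemoglobin UMIs in the total.

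By the mean of the libraries, 19 of the 37 members peaked in the macrophage gate, 7 in plasmacytoid and 6 in conventional dendritic cells, 3 in T and NK cells, and 1 each in mature neutrophils (Oas3) and megakaryocytes (Oas1a). The macrophage level was led by Rsad2, at 19.3, 5.24 and 19.8, with Bst2 at 11.2, 0.552 and 3.59 and Isg15 at 3.43, 1.38 and 6.74 in the libraries that had such barcodes. Rsad2 alone gave 359 of the 1222 member UMIs of HLU replicate 2, and Bst2 differed widely between the libraries. In the libraries with macrophages, 1 of 3, 1 of 5 and 10 of 30 barcodes had 5 or more members by the thinned count described below. They held 64.8%, 86.2% and 85.1% of the member UMIs of the macrophages with at least 2000 UMIs. Being chosen by their members, they hold a high share by that choice. The share of all genes that peaked in each gate was not counted. Ifit1, Oasl1, Irf7 and Zbp1 also peaked there, at means of 2.55, 3.32, 2.81 and 1.48. Mx1 and Usp18, which were sparse throughout, peaked there at means of 0.184 and 0.230.

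Plasmacytoid dendritic cells were led by Bst2, which is known as a surface antigen of these cells, at 27.2, 18.6, 22.7 and 18.4. Bst2 thus made up most of the member UMIs of this gate in the first 3 libraries, and the 4 libraries overlapped between the groups. Ifi47 (1.23, 1.29, 1.73 and 4.46) and Irf1 (1.23, 2.59, 1.98 and 2.23) came next. The nucleic acid sensors were near absent there, at 0.204, 0, 0.447 and 0 for the 4 genes together, and the Ifit genes were at 0 in 3 libraries. Slfn5, Stat2, Irf9, Ifi35 and Ifi44 peaked in this gate by the mean.

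Conventional dendritic cells carried Irf1 (1.64, 3.65, 1.69 and 3.36), Gbp2 (1.76, 3.08, 2.34 and 3.09) and Isg15 (0.756, 1.14, 0.490 and 5.08). Isg15 was several times higher in HLU replicate 2 than in the other libraries. Gbp3, Gbp5, Herc6 and Xaf1 also peaked there, at means of 0.459, 1.12, 0.478 and 0.416. Endothelial cells, with 6 to 11 barcodes a library, held Rsad2 at 0.926, 2.07, 5.17 and 0.832, Bst2 at 0.926, 2.90, 1.81 and 0.832, and Isg15 at 0, 0, 3.36 and 0.666. HLU and Ctrl libraries overlapped for each gene named in these 2 gates except endothelial Isg15.

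**Figure D2:**
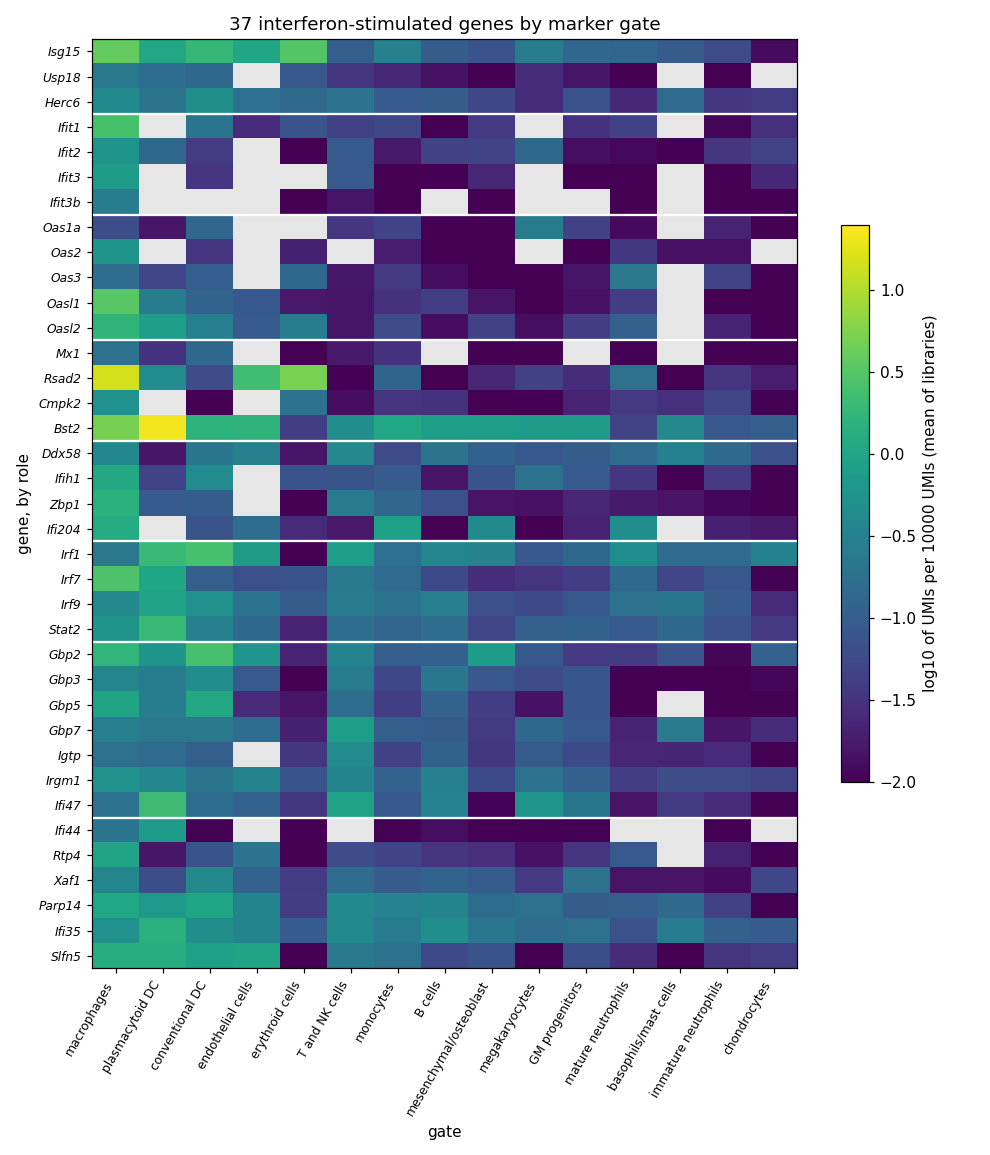
Mean level of each of the 37 members over the libraries (colour, log10 of UMIs per 10000 UMIs; grey, no UMI) by marker gate, genes in order of role and white lines between roles. Rsad2 in macrophages and Bst2 in plasmacytoid dendritic cells are the brightest cells, and the Gbp genes are darker in neutrophils than in T and NK cells.

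For the 6 larger gates, the sums per library were compared in 1 edgeR quasi-likelihood model with library as a term, each gate against the mean of the other 5, and 31 of the 37 members passed the filter on low counts. Ifi44, Ifit3, Ifit3b, Mx1, Oas2 and Usp18 did not. T and NK cells were higher in 15 of 31 members (48.4%; background: 21.9% of 10824 genes) and lower in 1 (3.23%; 23.9%). The GTPases led: Gbp7 was higher by 3.48 ± 0.25 on the log2 scale (estimate ± SE; edgeR adjusted p = 4.71e-11), Ifi47 by 3.04 ± 0.19 and Gbp3 by 2.94 ± 0.36. Igtp (2.72), Gbp2 (2.42), Gbp5 (2.34) and Irgm1 (1.27) followed, so all 7 GTPases were called higher. The summed level of the GTPases in T and NK cells was 3.11, 3.16, 3.01 and 3.61, with Ifi47 at 0.806, 1.12, 1.06 and 0.681 and Gbp7 at 0.806, 0.545, 0.764 and 0.982. Irf1, which interferon gamma induces, was at 0.749, 0.804, 0.637 and 0.912 and higher by 1.42 ± 0.21. Ifi204 was lower by 3.23 ± 1.23, a call absent when barcodes with 5 or more members (described below) were left out.

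Monocytes were higher in 9 of 31 members (27% of all genes) and lower in 4 (19.6%). Ifi204, a cytosolic DNA sensor of the PYHIN family, was higher by 5.06 ± 0.36 (edgeR adjusted p = 4.44e-11), with levels of 0.887, 1.32, 0.790 and 0.580. Bst2 was higher by 1.75 ± 0.17, at 0.510, 1.10, 1.07 and 1.53. Rsad2 (1.99), Zbp1 (1.47), Slfn5 (1.34), Oas1a (1.28), Isg15 (1.26), Parp14 (1.12) and Ifih1 (0.86) were the other 7. Parp14, an ADP-ribosyltransferase, had the next highest level, at 0.201, 0.377, 0.291 and 0.427. Ddx58 (-1.77), Irf1 (-1.17), Igtp (-0.90) and Ifi47 (-0.71) were lower, so that in monocytes the RNA sensors Ddx58 and Ifih1 lay on opposite sides of the other gates. Under the stricter gate 13 of 27 members were higher (27.3% of genes) and 2 lower (18.1%), with a median difference of 0.91. Without the barcodes of 5 or more members 6 were higher and 6 lower, and the median difference of the members fell from 0.45 to 0.07. Those barcodes were chosen by their members, so a lower level of members without them follows from that choice.

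Immature neutrophils were higher in 4 members (30.6%) and lower in 13 (22.2%). Gbp5 (-4.45 ± 0.54) and Gbp3 (-4.44 ± 0.46) were the furthest below, and all 7 GTPases were called lower. Cmpk2 was higher by 1.69, Oas3 by 1.24, Ifit2 by 1.05 and Ddx58 by 0.62; under the stricter gate 1 member was higher. Their highest levels were those of Irf1 (0.157, 0.134, 0.201 and 0.117), Ddx58 (0.105, 0.127, 0.132 and 0.225) and Ifi35 (0.110, 0.0857, 0.108 and 0.143). Ddx58 and Ifi35 were highest in HLU replicate 2 and Irf1 in HLU replicate 1.

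Mature neutrophils were higher in 13 members (38.5%) and lower in 10 (37.1%). Ifi204 (4.91 ± 0.35), Rsad2 (4.10 ± 0.43) and Oas3 (4.09 ± 0.25, edgeR adjusted p = 5.77e-13) led, followed by Oasl2 (3.14), Oasl1 (2.26), Rtp4 (2.08), a chaperone-like protein, and Ifit1 (2.05). Oas3 was at 0.136, 0.137, 0.251 and 0.374, above the immature gate in each library. Ifi204 was at 0.248, 0.356, 0.379 and 0.983 and Irf1 at 0.534, 0.432, 0.572 and 0.286. Gbp3 (-2.84), Ifi47 (-2.56) and Bst2 (-2.42) were lowest, and 6 of the 7 GTPases were called lower, Gbp2 being the exception.

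Neutrophil maturation was then compared directly. Mature against immature neutrophils, 14 of 31 members were higher (45.2%; 29.6% of genes) and 1 was lower (29.1%): Ifi204 by 4.77 ± 0.45 (edgeR adjusted p = 6.61e-09), Oasl1 by 3.27 ± 0.69, Rsad2 by 2.84 ± 0.49, Oasl2 by 2.60 ± 0.48 and Oas3 by 2.38 ± 0.30. Gbp5, Ifit1, Rtp4, Gbp2, Irf1, Parp14, Isg15, Irf9 and Irf7 rose by 0.97 to 2.53. Oas3, Oasl1 and Oasl2 therefore rose together, and the summed OAS level was 0.0660, 0.0832, 0.123 and 0.180 in immature and 0.243, 0.253, 0.521 and 0.672 in mature neutrophils. The lower member was Ifit2 (-1.50 ± 0.60), which was not called under the stricter gate, and 2 were lower without the barcodes of 5 or more members. Mature neutrophils had fewer UMIs per barcode, with medians of 1985.5 to 3387.5 against 7913 to 9805.5, and the part of this in the comparison was not tested.

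Granulocyte-monocyte progenitors were higher in 7 members (32%) and lower in 9 (28.1%). Xaf1 (1.67 ± 0.36), Gbp5 (1.54), Bst2 (1.38), Oas1a (1.29) and Gbp3 (1.29) were higher, and Irf7 (-1.83 ± 0.34), Oas3 (-1.59), Irf1 (-1.28) and Irf9 (-1.17) lower. Bst2 led their levels at 0.505, 0.965, 0.504 and 0.983, before Ifi47 at 0.144, 0.311, 0.1695 and 0.202 and Xaf1, an antagonist of the apoptosis inhibitor XIAP, at 0.309, 0.102, 0.265 and 0.0708. Gbp3 and Gbp5 were thus above the mean of the other gates in the progenitors and below it in both neutrophil gates.

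B cells were higher in 7 members (28.6%) and lower in 8 (26.4%). Gbp3 (2.54 ± 0.30), Gbp5 (1.66), Ifi47 (1.14) and Bst2 (1.0) were higher. Ifi204 (-3.98 ± 1.12), Rsad2 (-3.89 ± 1.20) and Ifit1 (-3.12 ± 0.92) were furthest below. Bst2 (0.601, 0.894, 0.801 and 0.946), Ifi35 (0.349, 0.457, 0.448 and 0.710) and Irf1 (0.272, 0.428, 0.530 and 0.237) were the members with the highest levels. Rsad2 had a UMI in 0 of 126, 0 of 229, 0 of 573 and 1 of 366 B-cell barcodes. Except in T and NK cells, the share of members called higher in a gate was within a few percentage points of that of all genes or below it in these fits. Under the stricter gate, monocytes were also above the share of all genes, with 13 of 27 members higher against 27.3%.

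In the gates not tested, mesenchymal cells were led by Bst2 (0.636, 0.425, 1.30 and 0.775), Gbp2 (0.632, 0.465, 0.820 and 1.14) and Ifi204 (0.518, 0.430, 0.132 and 0.620). For Bst2 and Gbp2 both HLU values were above both Ctrl values, on 30 to 49 HLU UMIs a library. Chondrocytes were led by Irf1 (0.213, 0.414, 0.169 and 0.462), Gbp2 (0.0717, 0.0607, 0 and 0.333) and Bst2 (0.0673, 0.0656, 0.0675 and 0.222). Their HLU values rest on at most 25 UMIs per gene. Megakaryocytes were led by Bst2 (0.593, 0.514, 1.21 and 0.653), Ifi47 (0.593, 0.900, 0.573 and 0.297) and Oas1a (0.791, 0.129, 0.135 and 0.0594), the last on 1 to 4 UMIs a library. Basophils and mast cells were led by Bst2 (0.395, 0.345, 0.294 and 0.573), Ddx58 (0.395, 0.230, 0.176 and 0.453) and Ifi35 (0.593, 0.115, 0 and 0.272).

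Whether unloading changed the members was asked next, first over all kept cells. The summed level was 1.91, 2.36, 2.84 and 4.65, and both HLU libraries were above both Ctrl libraries. The 6 larger gates weighted equally gave 3.30, 4.34, 3.95 and 5.21, in which HLU replicate 1 lay between the Ctrl libraries. In sums over all cells, a different number of cells of a type and a different amount of RNA per cell cannot be told apart.

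Over all cells, 4 of the 37 members (10.8%) were called by edgeR, against 23.2% of 15385 genes, and all 4 were higher in HLU, against 6.06% of genes higher and 17.1% lower. Oasl1 had levels of 0.00728, 0.00681, 0.0218 and 0.0557 and rose by 2.57 ± 0.60 on the log2 scale (edgeR adjusted p = 0.036). Oas3 rose by 2.35 ± 0.46 (0.0126, 0.0260, 0.0816 and 0.104; edgeR adjusted p = 0.0243). Oas1a rose by 2.13 ± 0.56 (0.00693, 0.0106, 0.0225 and 0.0489; edgeR adjusted p = 0.0498). These 3 are of the OAS family, whose products make the second messenger that activates RNase L, or in the case of Oasl1 resemble those enzymes. Cmpk2, at 0.0126, 0.0186, 0.0463 and 0.0483, rose by 1.68 ± 0.37 (edgeR adjusted p = 0.0309). For each of the 4 both HLU libraries were above both Ctrl libraries.

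The calls depended on single libraries, for members as for all genes. Without Ctrl replicate 1 or without Ctrl replicate 2 there were 0 (5.31% and 7.14% of genes). Without HLU replicate 1 there were 26 of 37 (47.9% of genes) and without HLU replicate 2 there were 11 (37.8%), of which 9 were higher. DESeq2 called 15 (30.4% of genes). Across the members the log2 difference had a median of 1.14, against 0.04 over all genes, and 32 of 37 were positive (51.55% of genes). Both HLU libraries were above both Ctrl libraries for 27 members (31.7% of genes) and below them for 2 (35.2%), Ifit3 at -1.03 and Gbp2 at -1.01, with edgeR adjusted p of 0.258 and 0.139. Chondrocytes, which were low in members, and mesenchymal cells were far fewer in the HLU libraries and erythroid cells more numerous (barcode counts above), and their part in these differences was not tested.

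Within monocytes no member was called by edgeR: 0 of 31 tested, against 0% of 9983 genes. At an unadjusted p under 0.05 edgeR had 0 members, against 4.24% of genes, and DESeq2 called 0 members and 82 genes. HLU lay above Ctrl in both libraries for 2 members (18.5% of genes) and below for 2 (20.1%), and 15 of 31 estimates were positive (51.7% of genes). Those 4 were Oas1a, at 3, 9, 35 and 97 UMIs and levels of 0.0182, 0.0330, 0.0743 and 0.0662, with a difference of 1.33 ± 0.54; Gbp3, at 0.0182, 0.0513, 0.0765 and 0.0662, with 0.89 ± 0.58; Herc6, at 0.0851, 0.154, 0.0701 and 0.0717, with -0.84 ± 0.43; and Ifi204, with -0.77 ± 0.33. Each had an edgeR adjusted p of 0.802. The direction of the members was therefore split, but the split depended on which Ctrl library was kept. Without Ctrl replicate 2, 27 of 33 estimates were positive (median log2 difference 1.39). Without Ctrl replicate 1, 12 of 34 were positive (median -0.30). Without HLU replicate 1, 19 of 33 estimates were positive (median 0.26), and without HLU replicate 2, 10 of 32 were (median -0.22). Ctrl replicate 1 was the lowest library for the ISG15 system (0.176, 0.550, 0.197 and 0.766) and for the direct effectors (0.523, 1.52, 1.14 and 1.79). Skeletal transcripts (a list of 12 genes such as Col1a1) were at 14.0, 8.41, 0.386 and 0.470 in these barcodes and neutrophil transcripts (S100a8 and S100a9) at 16.2, 33.2, 46.9 and 45.2. Hbb-bs differed by 2.27 ± 0.43 (edgeR adjusted p = 0.411), and the part of these transcripts was not tested.

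Within immature neutrophils edgeR called 0 of 29 tested members, against 1.91% of 10501 genes, and DESeq2 called 0. The genes that edgeR called here were all lower in HLU, and 0 were higher. At an unadjusted p under 0.05 edgeR had 1 member, against 10.2% of genes. HLU lay above Ctrl for 9 (20.9%) and below for 1 (22.4%, Gbp2). Oas3 was at 13, 26, 89 and 210 UMIs, levels of 0.0220, 0.0328, 0.0625 and 0.0826, with a difference of 1.39 ± 0.44 (edgeR adjusted p = 0.333). The other 4 with the largest differences and no overlap were Oas1a (1.19), Ifit1 (1.10), Oas2 (0.83) and Rtp4 (0.82), with edgeR adjusted p of 0.56 to 0.64. Oas1a was at 0.0135, 0.0126, 0.0176 and 0.0405, Ifit1 at 0.00169, 0.0113, 0.0190 and 0.0122, Oas2 at 0.00846, 0.0126, 0.0155 and 0.0224 and Rtp4 at 0.0152, 0.0139, 0.0246 and 0.0272. For Ifit1 in Ctrl replicate 1 the level rests on 1 UMI. Without HLU replicate 1, 21 of 28 estimates were positive (50.7% of genes), with a median log2 difference of 0.82 (0.01 over all genes). That median was 0.07 without HLU replicate 2, 0.41 without Ctrl replicate 1 and 0.58 without Ctrl replicate 2. Skeletal transcripts were at 12.96, 11.1, 0.283 and 0.107 in this gate, neutrophil transcripts S100a8 and S100a9 at 2444, 2608, 2459.9 and 2925, and haemoglobin Hbb-bs differed by 1.57 ± 0.37 between HLU and Ctrl (edgeR adjusted p = 0.148). Their part in the differences was not tested.

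Of the 6 gates, mature neutrophils had the largest share of members with an estimate in the same direction. edgeR called 0 of 23 tested members, against 1.98% of 8180 genes, and DESeq2 called 0. Every gene that edgeR called in this gate was lower in HLU, and 0 genes were called higher. In edgeR 9 members had an unadjusted p under 0.05, against 9.91% of genes, and all 9 were higher in HLU. HLU lay above Ctrl in both libraries for 16 of the 23 (20.9%) and below for 0 (23.9%), and 22 were positive (51.5% of genes). Because 14 members did not pass the filter, the same was counted without it: 23 of 36 members were above and 0 below, against 18.4% and 19.4% of 15706 genes.

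Herc6 was at 0, 2, 22 and 24 UMIs in mature neutrophils and had the largest difference, 3.80 ± 0.98 (edgeR adjusted p = 0.185), an estimate that depends on the prior count because a Ctrl library was at 0. Ifih1 was at 0.0187, 0.00790, 0.0371 and 0.0744, with 2.33 ± 0.80 (edgeR adjusted p = 0.402). Ifit1 was at 0.0234, 0.0184, 0.101 and 0.0418, with 1.85 ± 0.53 (edgeR adjusted p = 0.269). Herc6 and Ifih1 were highest in HLU replicate 2 and Ifit1 in HLU replicate 1, so the HLU libraries did not share an order. Oasl2, at 0.0515, 0.0553, 0.148 and 0.181, differed by 1.78 ± 0.46 (edgeR adjusted p = 0.183), and Rtp4, at 0.0608, 0.0316, 0.0804 and 0.184, by 1.78 ± 0.70 (edgeR adjusted p = 0.49). By role, the summed levels were 0.243, 0.253, 0.521 and 0.672 for the OAS family, 0.0608, 0.0869, 0.167 and 0.335 for the ISG15 system and 0.337, 0.485, 0.574 and 1.39 for the sensors. The transcription factors were at 0.838, 0.819, 0.963 and 0.874, a smaller spread.

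Without HLU replicate 1, 16 of 26 members were called in mature neutrophils (32.3% of genes). Without HLU replicate 2 only Ifit1 of 23 was called (3.54% of genes), and without either Ctrl library 0. With no filter on low counts 10 of 36 were called (5.21% of genes). Neutrophil transcripts S100a8 and S100a9 were at 1560, 1589, 1712 and 2694 in this gate and skeletal transcripts at 25.1, 21.6, 0.465 and 0.112. Haemoglobin Hbb-bs differed by 1.17 ± 0.38 and Hba-a1 by 1.28 ± 0.58 (edgeR adjusted p = 0.366 and 0.524), and the part of these transcripts in the differences was not tested.

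In the other 3 gates edgeR and DESeq2 called 0 members: 0 of 19 in granulocyte-monocyte progenitors (0.319% of genes), 0 of 13 in B cells (0.476%) and 0 of 11 in T and NK cells (0.572%). These shares of genes are those of edgeR, which called 0 genes higher in HLU in each of the 3. At an unadjusted p under 0.05 edgeR had 0, 0 and 2, against 5.14%, 4.58% and 6.96% of genes. The summed levels of T and NK cells, 7.66, 7.37, 7.34 and 8.996, overlapped between the groups, as did those of the progenitors and the B cells. Without HLU replicate 1, 4 members were called over the 3 gates: Xaf1 and Slfn5 lower and Parp14 higher in the progenitors, and Parp14 higher in T and NK cells. In those fits 27.2% of genes were called in the progenitors, more than the 3 of 24 members, and 5.37% in T and NK cells, where 1 of 18 members was called.

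**Figure D3:**
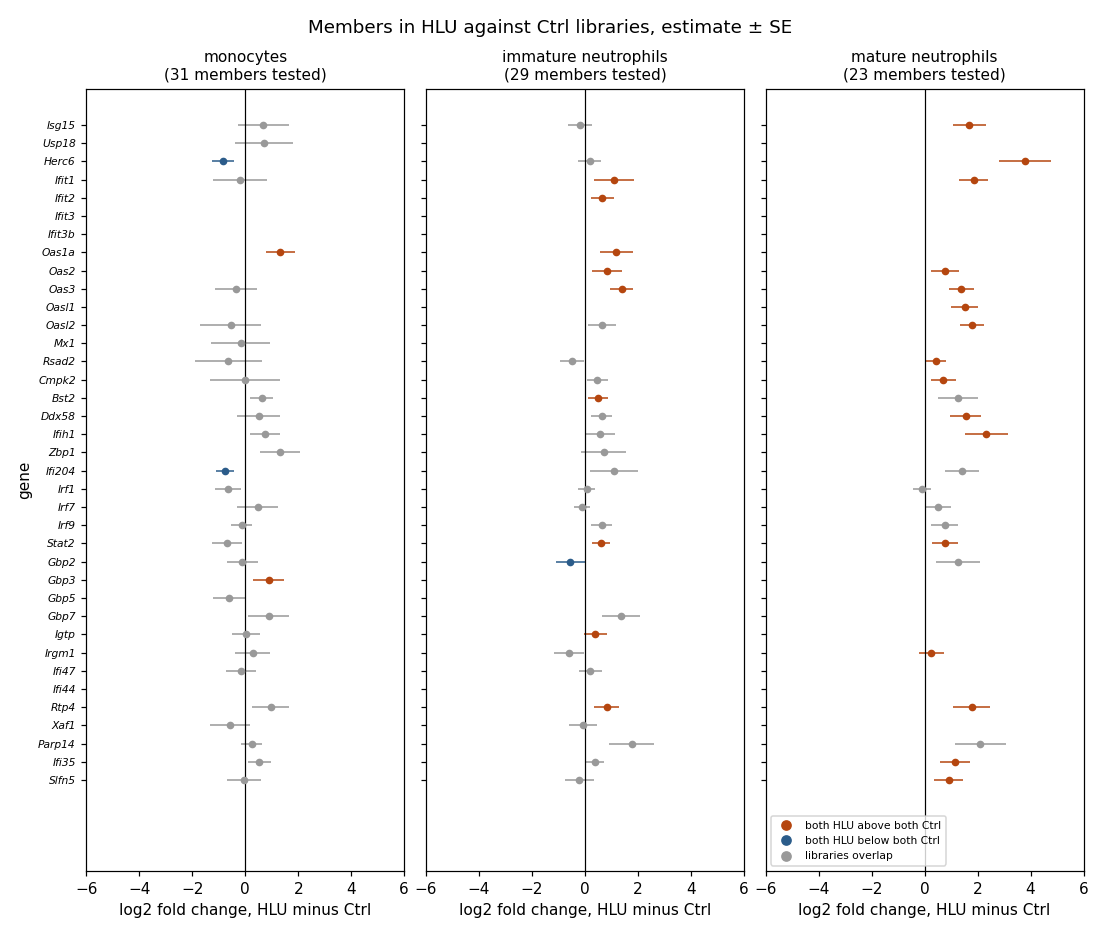
Difference between HLU and Ctrl libraries (log2 fold change, point with SE as bar) for each member tested in monocytes, immature neutrophils and mature neutrophils; orange, both HLU libraries above both Ctrl libraries; blue, both below; grey, overlapping. In mature neutrophils 22 of 23 points lie right of 0, in monocytes 15 of 31, and no point passes an adjusted p of 0.05.

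The difference between the responses of monocytes and mature neutrophils was tested itself. edgeR called 0 of 33 members for the interaction, against 0% of 10544 genes. In edgeR 2 members had an unadjusted p under 0.05, as did 699 of all genes. The 2 members were Herc6, whose difference was smaller in monocytes by 4.62 ± 0.99 on the log2 scale (-4.62, edgeR adjusted p = 0.324), and Ifi204 (-1.80 ± 0.67, edgeR adjusted p = 0.718). Calls numbered 10 of 34 without HLU replicate 1 (21.7% of genes), 5 of 34 without HLU replicate 2 (1.71%) and 0 without either Ctrl library. A difference between these cell types in their response was thus not shown by the 4 libraries together.

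Member UMIs were not spread evenly over barcodes. Each barcode was thinned to 2000 UMIs, leaving out shallower ones, and those with UMIs of at least 5 different members were counted; such barcodes are called member-rich. Of the kept barcodes with at least 2000 UMIs they made up 0.320%, 0.595%, 1.01% and 1.82% (20, 39, 62 and 159 barcodes). Before thinning they held 6.79%, 15.9%, 16.0% and 21.0% of the member UMIs of the barcodes with at least 2000 UMIs. Without thinning, 3.43%, 4.10%, 4.96% and 16.2% of all kept barcodes reached 5 members, the last in the deepest library.

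In monocytes 0 of 148, 10 of 233, 10 of 367 and 23 of 830 barcodes were member-rich, or 0%, 4.29% (2.08 to 7.75), 2.72% (1.31 to 4.95) and 2.77% (1.76 to 4.13). The 0 of Ctrl replicate 1 allows a share of up to 2.46%. In the other 3 libraries these few barcodes held 37.5%, 24.8% and 25.2% of the member UMIs of the gate's barcodes with at least 2000 UMIs. Without thinning, 10.1%, 22.8%, 22.6% and 43.4% of barcodes reached 5 members. The limit is a range and not a type: 1, 2 and 8 of the rich barcodes had exactly 5 members, and 7, 1 and 16 others had 4. Rich barcodes were chosen by their members, so a higher level of members in them follows from that choice. Their part of the member UMIs follows from it as well, and both are given as description only. The 43 rich monocyte barcodes held Bst2 at 7.33 (1.11 in the rest), Isg15 at 5.49 (0.297), Rsad2 at 3.19 (0.0349), Irf7 at 2.62 (0.128), Slfn5 at 2.53 (0.0952) and Ifit1 at 1.41 (0.0140).

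Mature neutrophils had 3 of 448, 4 of 1025, 21 of 1575 and 19 of 1082 rich barcodes, or 0.670% (0.138 to 1.94), 0.390% (0.106 to 0.996), 1.33% (0.827 to 2.03) and 1.76% (1.06 to 2.73). Both HLU shares were above both Ctrl shares. The intervals of Ctrl replicate 2 and HLU replicate 2 did not overlap, whereas those of every other Ctrl and HLU pair did. They cover counting error only. The barcodes left out as too shallow numbered 464, 339, 832 and 98, and the unthinned shares were 0.439%, 0.513%, 1.496% and 4.49%. The rich barcodes held 11.7%, 9.53%, 30.9% and 16.3% of the member UMIs of the gate's barcodes with at least 2000 UMIs. In these 47 barcodes Rsad2 was at 8.46 (0.0843 in the rest), Isg15 at 6.69 (0.0734), Ifi204 at 5.31 (0.479), Oasl2 at 3.94 (0.0800) and Oas3 at 3.74 (0.224). These contrasts, too, follow from the choice of barcodes by their members. Without the member-rich barcodes of all gates, edgeR again called 0 of 20 members tested in mature neutrophils (1.79% of genes). At an unadjusted p under 0.05 edgeR had 3 (9.67% of genes). Over all cells 3 members in place of 4 were called (23.4% of genes), namely Cmpk2, Oas3 and Oasl2 with edgeR adjusted p of 0.0242, 0.0245 and 0.0479.

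Another list of interferon-stimulated genes, none of them members, was read in the same barcodes. Of those with at least 10 UMIs, 53 of 54 were higher in rich than in other monocytes, with a median ratio of 3.88, and 41 of 47 in mature neutrophils, with a median ratio of 5.41. Ifitm3, a membrane protein that blocks viral entry, was at 28.7 against 11.9 in monocytes and 23.8 against 6.09 in mature neutrophils. Cxcl10, a chemokine of the same response, was at 6.16 against 0.245 and at 2.23 against 0.0734. Rich barcodes thus held more of most genes of a list that did not enter their definition, but the share of all genes higher in them was not counted. Barcodes were pooled over the libraries. Of the 43 rich monocytes 23 came from HLU replicate 2 and 0 from Ctrl replicate 1, and the part of library differences was not tested. Oas1g, read in monocytes, shares 74.2% of its end with the member Oas1a.

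**Figure D4:**
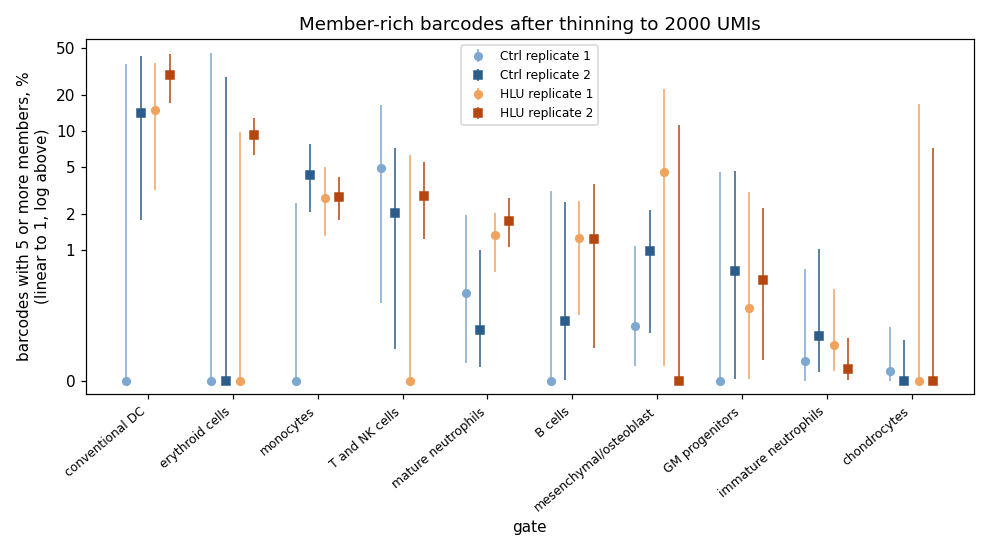
Share of barcodes with UMIs of 5 or more members after thinning to 2000 UMIs (percent, axis linear to 1 and logarithmic above), 1 point per library with its exact binomial 95% interval. Monocytes sit at 2.72% to 4.29% except Ctrl replicate 1 at 0, the HLU points of mature neutrophils lie above the Ctrl points, and immature neutrophils reach at most 0.345%.

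Other gates had member-rich barcodes as well: 14 of 47 conventional dendritic cells and 10 of 30 macrophages in HLU replicate 2 (29.8% and 33.3%). T and NK cells had 2 of 41, 2 of 98, 0 of 57 and 8 of 285. Immature neutrophils, with 0.154%, 0.345%, 0.275% and 0.0904%, and Ctrl chondrocytes, with 1 of 1337 and 0 of 1170 barcodes, give the level at which such barcodes occurred in cells that were low in members.

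The erythroid gate stood apart in HLU replicate 2. Its members were at 1.66, 1.53, 4.07 and 32.7, from 4, 7, 73 and 5275 UMIs, and haemoglobin took 87.3%, 87.0%, 67.5% and 59.5% of the UMIs. Counted per 10000 UMIs outside haemoglobin, the members were at 13.1, 11.7, 12.5 and 80.6, so only HLU replicate 2 stood apart. Rsad2 and Isg15 made up most of the member UMIs of HLU replicate 2, with 2516 and 1821 of 5275. Outside haemoglobin, Rsad2 was at 13.1 (3.56 to 33.5), 10.05 (3.69 to 21.9), 6.01 (4.19 to 8.36) and 38.4 (36.9 to 39.96). Isg15 was at 0 (0 to 12.1), 1.67 (0.0424 to 9.33), 3.09 (1.83 to 4.88) and 27.8 (26.6 to 29.1). Isg15 was therefore higher in HLU replicate 2 than in each other library beyond counting error, whereas in the Ctrl libraries the erythroid barcodes numbered 8 and 11 only. Isg20, a nuclease of the same response that is no member, was at 26.1, 28.5, 8.59 and 14.6 and did not follow that order. The gate was not tested, because the Ctrl libraries had fewer than 30 barcodes.

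In HLU replicate 2 both genes were found in far more erythroid than B-cell barcodes, but Isg15 was common in other gates too. There Isg15 had a UMI in 68.6% of macrophages, 62.5% of conventional dendritic cells, 42.3% of megakaryocytes and 31.3% of monocytes. Their median depths were 4611, 6617, 19343.5 and 15853.5 UMIs. Rsad2 was found in 42.9% of macrophages and in 4.61% of monocytes. Isg15 had a UMI in 208 of 413 erythroid barcodes (50.4%, 45.4 to 55.3) and Rsad2 in 333 (80.6%, 76.5 to 84.3), at a median of 3435 UMIs. In B cells of the same library, at a median of 2408.5 UMIs, the shares were 1.91% and 0.273%. In HLU replicate 1 the erythroid shares were 18.2% and 32.7% of 55 barcodes. In the Ctrl libraries Rsad2 had a UMI in 4 of 8 and 4 of 11 erythroid barcodes and Isg15 in 0 and 1, so Rsad2 was detected in this gate in both groups. Over the tertiles of haemoglobin share in HLU replicate 2, Rsad2 outside haemoglobin was at 27.8, 51.6 and 40.2 and Isg15 at 16.7, 43.8 and 26.1, highest in the middle in both cases. Oasl2 was at 2.54 outside haemoglobin in HLU replicate 2 and at 0, 0 and 0.172 in the others, Herc6 at 1.07, Oas3 at 1.36 and Usp18 at 0.825, whereas Bst2 was at 0.428. By the thinned count 29 of 315 erythroid barcodes of that library were member-rich (9.21%, 6.25 to 12.95). In the others 0 of 6, 0 of 11 and 0 of 36 were, with upper limits of 45.9%, 28.5% and 9.74%.

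The erythroid gate also carried weight in the sums over all cells. HLU replicate 2 had 4417 UMIs of Isg15 and 3891 of Rsad2 in all, so the 1821 and 2516 erythroid UMIs were a large part of each. Neither gene was called over all cells. With barcodes above 0.2% haemoglobin left out, as in the methods of the study, 4 members were again called over all cells.

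**Figure D5:**
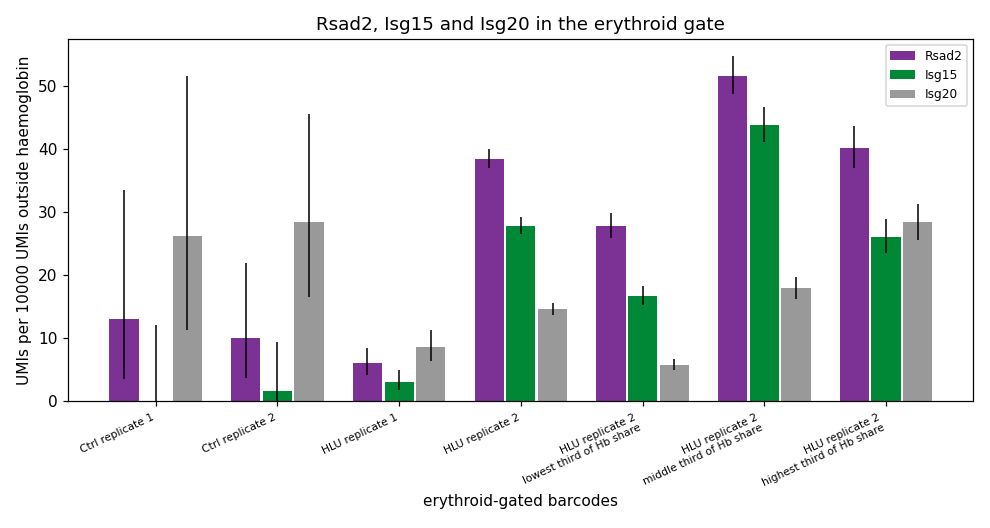
Level of Rsad2, Isg15 and Isg20 in the erythroid gate (bars from 0, UMIs per 10000 UMIs outside haemoglobin, exact Poisson 95% interval) in each library and, for HLU replicate 2, by tertile of the haemoglobin share. Rsad2 reaches 38.4 and Isg15 27.8 in HLU replicate 2, and Isg20 is higher in the Ctrl libraries.

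The upstream genes of the pathway were read from fixed lists. Of 12 interferon genes, 7 had no UMI in any kept barcode and the 12 together had 37 UMIs, 29 of them Ifng (4, 17, 7 and 1). Ifng was at 0.117 in T and NK cells by the mean of the libraries and at most 0.00728 in the other 5 gates, and Ifnb1 had 2 UMIs in all. Interferon transcripts were thus at the floor of these libraries outside T and NK cells, which limits what can be said of them.

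The receptor genes were broadly present. Ifngr1, the binding chain for interferon gamma, was at 13.6 in T and NK cells and 4.799 in granulocyte-monocyte progenitors against 0.822 to 1.44 in the other 4 gates. Ifnar2, a chain of the type I receptor, was at 2.28 in monocytes and 2.02 in mature neutrophils, and Ifnlr1, of the lambda receptor, at 0.592 in mature neutrophils and at most 0.168 elsewhere. Over all cells, where edgeR called 6.06% of genes higher and 17.1% lower in HLU, 2 of the 6 receptor genes were called higher, Il10rb (1.05 ± 0.26) and Ifngr2 (1.23 ± 0.32), and the other 4 had positive estimates that were not called.

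Of the genes of interferon signal transduction, Ptpn6, a phosphatase that restrains cytokine signalling, was called higher over all cells, by 2.06 ± 0.44 (edgeR adjusted p = 0.029). Of 14 nucleic acid sensing genes, Tlr13 (1.44), Tlr7 (1.60), Mb21d1 (cGAS, 1.48) and Unc93b1 (1.45), which carries Toll-like receptors to the endosome, were called higher and Tlr3 (-2.22) lower. Tlr7 and Tlr13 are known from myeloid cells, and the monocyte gate held 149, 237, 381 and 846 barcodes; the part of these numbers in the differences was not tested.

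Of 61 other interferon-stimulated genes tested over all cells, 15 were higher and 1 was lower, against the 6.06% and 17.1% of all genes. The largest rises were Ifit1bl1 (2.32 ± 0.61), Ifitm6 (2.20 ± 0.42), Trim30a (2.08), Ly6e (1.97), Sp110 (1.80) and Ms4a4c (1.74). Slfn1, Slfn2, Slfn8, Sp100, Rnf213, Dtx3l, Nlrc5, Aim2 and Adar rose by 1.17 to 1.67. The fall was Ly6a (-1.69 ± 0.29), known as Sca-1 and carried by mesenchymal and endothelial cells as well as by stem cells. Within each of the 6 gates edgeR called 0 genes of any of these lists, so none of the changes over all cells was called in a gate. In those fits 0% to 1.98% of all genes were called, and 0 were called higher in HLU. A rise over all cells was therefore called in a gate for no gene of any kind.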

How the data were processed

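Transcripts of single bone cells were analysed in 2 Ctrl and 2 HLU libraries, 1 mouse each. Per the methods and the submitters' processing notes, the authors made the counts with Cell Ranger 6.0.0 on mm10 and worked with Seurat 4.1.0. They deposited raw UMI counts per gene and barcode, without normalization and not merged over libraries. The study also filtered haemoglobin at 0.2%, a limit used here only as an alternative, since it removes erythroid cells. The members and lists were chosen with earlier results of these data known.

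Kept barcodes were gated on a score, the mean over a type's markers of each marker's share of UMIs relative to its reference level, capped at 1 (at least 3 markers detected, score at least 0.3, other types under 0.5 of it). Of 138 markers, 9 were left out after the data were seen, because other cell types carried them (Fn1, Klf4, Axl, Vcam1, Il1b, Ccl6, Clec4d, G0s2, Cd24a). No doublet caller was run; barcodes with markers of more than one type were set aside. Raw counts were summed per library and gate and tested with edgeR 4.0.16 (TMM, filterByExpr, quasi-likelihood test, Benjamini-Hochberg over all genes tested, adjusted p under 0.05) in R 4.3.3. DESeq2 1.42.0 was an alternative, as were library size alone, no filter on low counts, a replicate block, each library left out, a stricter gate, another depth for thinning and, added after the data were seen, a crossed block and the removal of member-rich barcodes. With 1 library left in a group, that library was assumed to vary like the other group. Libraries, not cells, were the replicates. Where the study compared cells with a Wilcoxon test, sums per library took its place. Because 2 libraries against 2 cannot pass 0.05 in an exact permutation test, summed levels and shares of barcodes carry no test.

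Every library's values are given for members with an adjusted p under 0.05 between HLU and Ctrl, for the 5 largest non-overlapping differences in monocytes and in each neutrophil gate, and for the 3 highest members of each gate. From the pathway lists come the genes called and the most highly expressed receptors. The result for 1 gene that this rule would name is not given here. Of these lists Oas1b and Ifi30 were not analysed here. On simulated data for the monocyte comparison, 62% of 200 genes changed by 2 on the log2 scale were called, out of 9983, with 2 false calls and 0 of the wrong sign. Python 3.11.15 with numpy 2.4.6, scipy 1.17.1, pandas 2.3.3 and matplotlib 3.10.9 was used for the other steps.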

Additional observations from a re-analysis of the deposited data

Results flagged for a closer look

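Barcodes below 1000 UMIs, which entered no comparison, held members above the level of the Ctrl libraries in both HLU libraries. In HLU replicate 1 they stood at 2.77 UMIs per 10000 and in HLU replicate 2 at 13.7, against 2.10 and 2.27 in the Ctrl libraries. The value of HLU replicate 2 rests on 268 member UMIs in 267 barcodes, and the number of such barcodes in the other libraries was 2585, 2212 and 2143. The cell types of these barcodes were not determined.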

How the results depend on the processing

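Members called between HLU and Ctrl over all cells numbered 4 in the model reported, against 23.2% of genes. DESeq2 gave 15 (30.4%) and no filter on low counts gave 9 (17.5%). Library size alone gave 3 (22.5%) and the haemoglobin limit 4 (23.2%). Leaving out a library gave 0 to 26 over all cells, 0 to 9 in monocytes, 0 to 10 in immature and 0 to 16 in mature neutrophils, 0 to 4 in the other gates and 0 to 10 for the interaction; the cause was not tested, and each such fit has 3 libraries. With no filter 1, 2 and 10 members were called in monocytes, immature and mature neutrophils, against 2.24%, 5.10% and 5.21% of genes. For single named members, 166 values kept their side of the threshold, 14 became called, 12 lost the call and 0 reversed. The replicate numbers did not pair the libraries (correlations of the replicate differences -0.10 over all cells and -0.02 to 0.02 in the 3 myeloid gates). A replicate block gave 7 members over all cells (22.3% of genes) and the crossed pairing 4 (23.8%), with 0 in every gate under the block.

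The stricter gate left T and NK cells too few for a test. Of 27 members tested under it, 13 were higher in monocytes (27.3% of genes) and 2 lower (18.1%). Members higher in immature neutrophils numbered 1 (28.2%) and lower in mature against immature neutrophils 0 (31.1%). Without member-rich barcodes members lower in T and NK cells numbered 0 (23.7%) and lower in mature against immature neutrophils 2 (29.2%). The stricter gate moved the Ctrl mean level to 2.40 in mature neutrophils, 4.95 in B cells and 9.45 in T and NK cells. Thinning to 1000 UMIs lowered the mean share of member-rich barcodes to 0.473% in HLU monocytes (2.75% at 2000 UMIs), below the 1.27% of Ctrl monocytes (2.15%), which turned their order, 0.128% and 0.481% in Ctrl and HLU mature neutrophils, and 0.179% and 0.543% in Ctrl and HLU over all cells. With library size alone, the median over all genes moved from 0.07 to 0.29 in granulocyte-monocyte progenitors and from 0.00 to 0.14 in B cells, and members with a positive estimate from 9 to 14 of 19 and from 7 to 10 of 13. Sparse members (Mx1, Ifi44, Ifit3b, Oas2) had too few UMIs for a test in most gates.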
